A study of Mus musculus with 6 samples.

Results

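Genes that shape and remove mitochondria were followed in AML-12 cells, a mouse hepatocyte line, with and without a hairpin against MnSOD. The set held 10 genes: Mfn1, Mfn2, Opa1 and Oma1, which act in fusion, Dnm1l, Mff and Fis1, which act in fission, and Pink1, Bnip3 and Bnip3l, which act in mitophagy. They were chosen by symbol, as the rows of the array table annotated with exactly that 1 gene symbol, and all 10 were found among 19938 genes measured under 1 symbol. Where a gene had more than 1 probe set (a group of probes summarised as 1 value), the brightest stood for it. This rule used no measured difference between the groups, but the members were chosen with earlier results of these data known.

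The siMnSOD group (3 arrays) came from AML-12 cells carrying a retroviral pSUPER.retro.puro vector that expressed the hairpin against MnSOD, the product of Sod2, which turns superoxide into hydrogen peroxide inside mitochondria. The siScramble group (3 arrays) came from AML-12 cells carrying the same vector with a scrambled hairpin that recognises no gene. Both groups had thus been transduced and kept in puromycin, and the hairpin was built for weak silencing. Each array, an Affymetrix Mouse Gene ST chip, measured total RNA of 1 sample titled as a biological replicate. The cells came from different frozen batches, but no source says whether each replicate had its own transduction, so the p-values describe the spread of these 6 samples, which may be technical. Levels are the authors' normalized intensities in linear units, and differences are on the log2 scale, siMnSOD minus siScramble.

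Mitochondria form a network that is continually joined and split. The mitofusins MFN1 and MFN2 join outer membranes and OPA1 joins inner membranes, while the protease OMA1 cuts OPA1 under stress and thereby stops fusion. DNM1L (also called DRP1), a dynamin-like GTPase, constricts and divides the organelle after recruitment by adaptors such as MFF, and FIS1 is an outer membrane protein linked to fission. Damaged mitochondria are removed by mitophagy, either through the kinase PINK1, which marks them for ubiquitin ligases, or through the receptors BNIP3 and BNIP3L (NIX), which bind the autophagy machinery directly and whose genes are known targets of the hypoxia-inducible factors. Hepatocytes are rich in mitochondria, and both routes are active in liver.

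Sod2, the targeted gene, read 98.8, 121 and 52.3 intensity units on siMnSOD arrays 1, 2 and 3 and 248, 254 and 293 on siScramble arrays 1, 2 and 3. The groups did not overlap, and the siMnSOD level was 32.4% of the control (log2 difference -1.63, SE 0.30, adjusted p = 0.0369 in limma). Centring each array on its median (-1.54, adjusted p = 0.0688) or testing all probe sets (-1.63, adjusted p = 0.0631) ended this call. So did leaving out siMnSOD replicate 1 or 2 or siScramble replicate 1 or 2 (-1.73, -1.88, -1.67 and -1.66, with adjusted p 0.102, 0.0717, 0.118 and 0.133). In these alternatives the difference stayed about as large. Without siMnSOD replicate 3 it shrank to -1.27, and the call held (adjusted p = 0.0217 in limma). Within replicate numbers 1, 2 and 3 the difference was -1.33, -1.07 and -2.49, so its size rested in part on siMnSOD array 3. Replicate 3 stood apart in both groups: its Pearson r over all 35557 probe sets was 0.976 with both other controls and 0.984 to 0.985 with the other siMnSOD arrays, against 0.993 and 0.992 between replicates 1 and 2. Of 11 hepatocyte markers 8 lay above a background guide of 19.4 intensity units, among them Apob, Krt18, Krt8 (log2 difference 0.59, adjusted p = 0.124, or 0.0426 with the replicate block) and Hnf4a, which rose by 1.09 (adjusted p = 0.0132), whereas Alb, Ttr and Ahsg lay under it in both groups. Biliary markers summed to 3902 to 4189 units in siMnSOD and 1912 to 3300 units in siScramble over 5 genes, with Epcam and Cftr under the guide. Krt19 (0.70, adjusted p = 0.186) and Krt7 (1.15, adjusted p = 0.381) made up most of this sum and did not pass, and Sox9, the 1 called biliary marker, fell by 0.86 (adjusted p = 0.0273). None of the 6 macrophage, 6 endothelial and 6 stellate cell markers passed. Above the guide lay 3, 2 and 3 of them, among them the macrophage marker Cd14 (mean 207 units in siMnSOD and 172 in siScramble). The part of these markers in the differences below was not tested.

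No member changed past the threshold (adjusted p under 0.05 over all tested rows in limma), against 3.75% of all genes. At an unadjusted p under 0.05 there were 2 members, Fis1 on the higher and Dnm1l on the lower side, where 16.7% of all genes reached it. The groups did not overlap for 3 of the 10 members, against 20.9% of all genes: 1 was higher (Fis1; 11.1% of all genes) and 2 were lower (Dnm1l and Pink1; 9.73% of all genes). These shares are near the background, and they rest on the brightest probe set of each gene. The less bright Bnip3l probe set, described below, was lower without overlap (unadjusted p = 0.0246, adjusted p = 0.202 in limma). For the less bright Bnip3 probe set the groups overlapped. The members had a median log2 difference of 0.0021, with 6 positive and 4 negative, against a median of 0.0076 over all genes. All 10 members lay above the background guide. In these bulk samples a lower RNA level per cell and fewer cells with the RNA cannot be told apart. With the replicate number as a block, Bnip3l alone passed (adjusted p = 0.0414), where 7.14% of all genes did. Without replicate 3 of both groups, an alternative chosen after seeing the data, Fis1 passed on the higher side and Bnip3l on the lower side, where 21.4% of all genes passed.

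**Figure D1:**
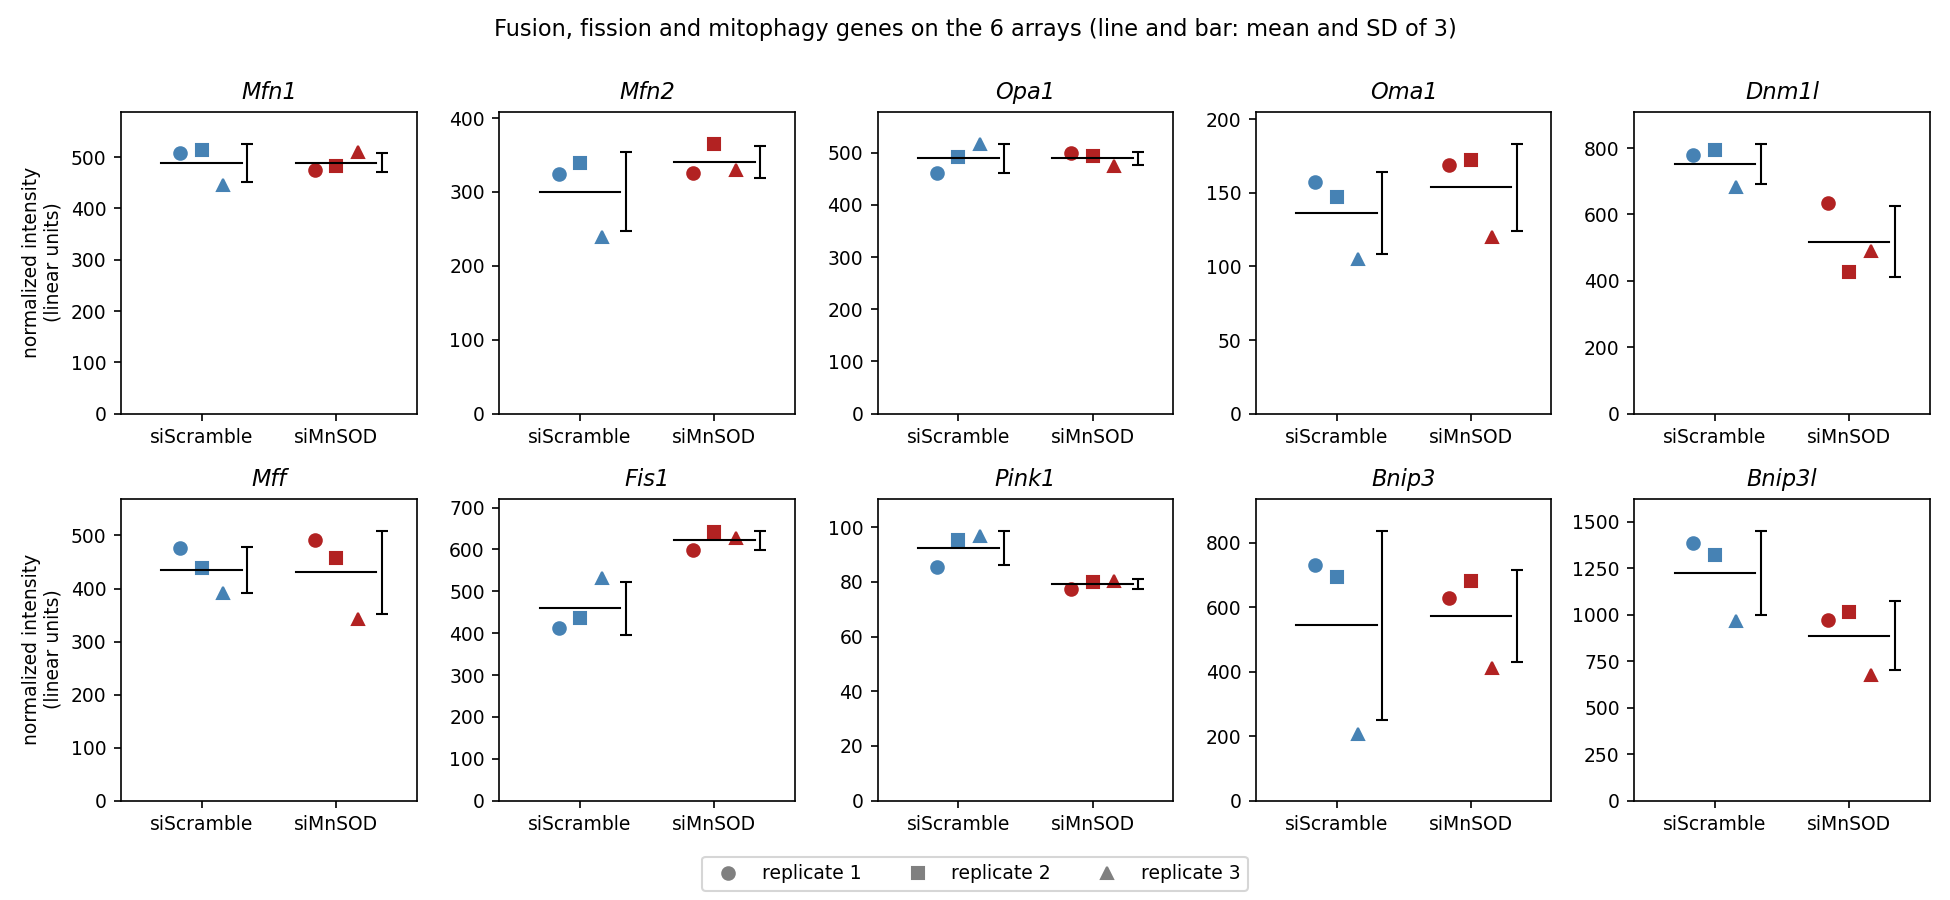
Normalized intensity (linear units, axes from 0) of the 10 genes on each of the 3 siScramble (blue) and 3 siMnSOD (red) arrays, with symbols for the replicate number, a line at the mean and a bar for the SD. Fis1 is higher and Dnm1l and Pink1 are lower on every siMnSOD array than on any control array, and Bnip3 is lowest on siScramble array 3 at 207 units.

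**Figure D2:**
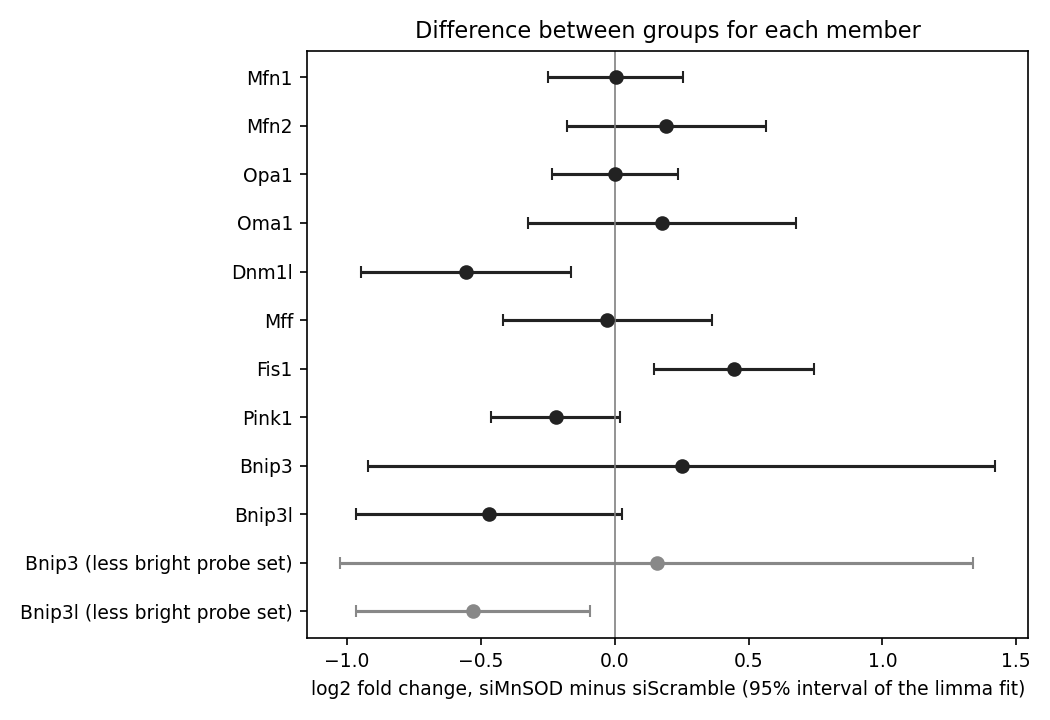
Log2 difference between siMnSOD and siScramble with its 95% interval from the limma fit, for the 10 genes (black) and for the less bright probe sets of Bnip3 and Bnip3l (grey). The intervals of Dnm1l (-0.95 to -0.16) and Fis1 (0.15 to 0.75) lie on opposite sides of 0, and that of Bnip3 spans -0.92 to 1.42.

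Promoter sequences are shown for 3 members: Dnm1l and Fis1, which had the smallest p-values and opposite signs, and Bnip3, whose level varied most between arrays. Sequences are those of RefSeq on GRCm38.p6, read 5′ to 3′ on the gene's strand from 250 bases before to 50 bases after an annotated start, and 9 of the 10 members matched, all but Bnip3l. Capitals mark the core of the hypoxia-response element, searched as ACGTG and as GCGTG on both strands. The windows are chr7:138909457-138909756 (minus strand) for Bnip3, chr16:16358526-16358825 (minus strand) for Dnm1l and chr5:136953025-136953324 (plus strand) for Fis1. Dnm1l and Fis1 each had 2 windows, of which the first listed is printed. The second windows, chr16:16358982-16359281 for Dnm1l and chr5:136961827-136962126 for Fis1, are not printed. That of Dnm1l spans the annotated 5′ end of the gene at 16359038, upstream of the printed window.
Bnip3: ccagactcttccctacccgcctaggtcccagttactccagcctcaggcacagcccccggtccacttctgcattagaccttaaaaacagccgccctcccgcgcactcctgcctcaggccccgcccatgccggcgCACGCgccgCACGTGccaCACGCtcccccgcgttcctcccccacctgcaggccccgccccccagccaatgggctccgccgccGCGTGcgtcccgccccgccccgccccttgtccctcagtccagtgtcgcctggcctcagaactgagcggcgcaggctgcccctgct
Dnm1l: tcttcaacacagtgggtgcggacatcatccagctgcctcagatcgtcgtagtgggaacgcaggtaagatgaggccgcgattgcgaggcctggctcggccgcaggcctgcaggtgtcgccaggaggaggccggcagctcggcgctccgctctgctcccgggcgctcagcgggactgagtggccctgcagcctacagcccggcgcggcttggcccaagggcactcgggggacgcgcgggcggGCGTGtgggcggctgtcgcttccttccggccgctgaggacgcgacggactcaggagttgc
Fis1: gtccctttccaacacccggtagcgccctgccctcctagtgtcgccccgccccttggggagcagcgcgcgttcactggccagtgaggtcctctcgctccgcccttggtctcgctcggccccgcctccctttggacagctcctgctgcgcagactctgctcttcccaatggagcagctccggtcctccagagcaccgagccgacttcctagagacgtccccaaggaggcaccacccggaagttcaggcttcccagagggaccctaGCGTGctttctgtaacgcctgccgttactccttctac
The Bnip3 window held 5 core matches, 2 of ACGTG and 3 of GCGTG. The 2 ACGTG matches are the same site read on both strands, since they overlap in the palindrome CACGTG, which is also an E-box. The printed Dnm1l and Fis1 windows each held 1 match, of GCGTG. The second Dnm1l window also held 1 match, of GCGTG, and the second Fis1 window held none. Among all 32851 windows of this length, 19.6% held ACGTG, 32.4% GCGTG and 7.15% CACGTG. Over all windows of the members, ACGTG was found for Bnip3 and Mfn2, and GCGTG for Bnip3, Dnm1l, Fis1, Mfn2 and Pink1. The element TGATGNAA, which the stress factor ATF4 is known to bind, was in 3.97% of all windows and in no window of a member. These are matches of letters and do not show binding.

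No fusion gene passed the threshold, and the intervals of Mfn2 and Oma1 were wide. Mfn1 read 475, 483 and 509 units on siMnSOD arrays 1, 2 and 3 and 507, 513 and 446 on siScramble arrays 1, 2 and 3. The groups overlapped, with the only control under the siMnSOD arrays being array 3, and the log2 difference was 0.0034 (SE 0.11, 95% interval -0.25 to 0.25). Mfn2 read 325, 365 and 330 units in siMnSOD and 324, 339 and 239 in siScramble. Its difference of 0.19 (SE 0.16, interval -0.18 to 0.56) was unevenly spread, with 0.0075, 0.11 and 0.46 within replicate numbers 1, 2 and 3, and it was 0.036 without siScramble replicate 3. MFN1 and MFN2 are paralogs with the same membrane-joining role, and neither gene reached the threshold (adjusted p = 1.00 and 0.765 in limma).

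Opa1, for the inner membrane fusion GTPase, had the smallest difference of the set. It read 499.6, 493 and 475 units in siMnSOD and 461, 491 and 516 in siScramble, so the siMnSOD values lay within the range of the controls. The log2 difference was 0.00082 (SE 0.099, interval -0.23 to 0.24). Oma1, for the protease that cuts OPA1, read 169, 172 and 120 units in siMnSOD and 157, 147 and 105 in siScramble. Array 3 was the lowest of either group, with a log2 shift of -0.51 (siMnSOD) and -0.54 (siScramble) against arrays 1 and 2. Within replicate numbers Oma1 was higher in siMnSOD each time, by 0.10, 0.23 and 0.19. The mean difference of 0.18 (SE 0.21, interval -0.33 to 0.68) did not pass the threshold (adjusted p = 0.927, or 0.303 with the replicate block, in limma). Without siScramble replicate 3 it was -0.0046.

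Among the fission genes none passed the threshold. Dnm1l, for the dividing GTPase, read 636, 427 and 490 units in siMnSOD and 778, 795 and 682 in siScramble. Every siMnSOD array was lower than every control, although siMnSOD arrays 1 and 2 differed from each other by more than any controls did. The siMnSOD level was 68.1% of the control (log2 difference -0.55, SE 0.17, interval -0.95 to -0.16), with an unadjusted p of 0.0126 and an adjusted p of 0.138 in limma. A two-sided exact permutation test on the group means had p = 0.1, and none of the 20 splits of these 6 arrays can give less. Within replicate numbers 1, 2 and 3 the difference was -0.29, -0.89 and -0.48.

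Fis1 had a positive difference. It read 598, 642 and 626 units in siMnSOD, or 622 ± 22.3 (SD, n = 3), and 412, 435 and 531 in siScramble, or 459 ± 63.3 (SD, n = 3). Every siMnSOD array was higher than every control, with control array 3 the nearest. The siMnSOD level was 136% of the control (log2 difference 0.45, SE 0.13, interval 0.15 to 0.75), with an adjusted p of 0.122 in limma and an exact permutation p of 0.1. Without siScramble replicate 3 the difference was 0.56 and passed the threshold (adjusted p = 0.0193 in limma, where 11.2% of all genes passed). Without replicate 3 of both groups it was 0.55 (adjusted p = 0.00831, where 21.4% of all genes passed). With any other single array left out the difference was 0.37 to 0.47 and did not pass. Within replicate numbers it was 0.54, 0.56 and 0.24.

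Mff, for the outer membrane adaptor that recruits DNM1L, read 492, 458 and 343 units in siMnSOD and 477, 438 and 391 in siScramble. The groups overlapped fully, with replicate 3 lowest in both. The log2 difference was -0.027 (SE 0.16, interval -0.42 to 0.36), and centring each array on its median turned it to 0.058. Of the 3 fission members, then, Dnm1l was lower and Fis1 higher without overlap, and Mff lay between. Over all genes 9.73% were lower and 11.1% higher without overlap, and none of the 3 members passed the threshold.

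Pink1, for the kinase that marks damaged mitochondria, had the lowest spread of the set in siMnSOD on the log2 scale. It read 77.3, 80.1 and 80.5 units in siMnSOD and 85.4, 95.4 and 96.7 in siScramble. All siMnSOD arrays lay under all controls, by a small margin at control array 1. The level was 85.9% of the control (log2 difference -0.22, SE 0.10, interval -0.46 to 0.021), which did not pass the threshold (adjusted p = 0.368 in limma, exact permutation p = 0.1). Within replicate numbers the difference was -0.14, -0.25 and -0.26.

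Bnip3 and Bnip3l, for the paralogous mitophagy receptors, were each measured by 2 probe sets, and the brightest of them has a neighbourhood that does not match the gene. By probe set number, the brightest Bnip3 probe set falls between probe sets of genes on chromosome 14 (BC061237 and Ptger2), and the less bright one between those of the neighbours of Bnip3 on chromosome 7 (Mapk1ip1 and Stk32c). The brightest Bnip3l probe set falls between genes on chromosome 12 (Gm4983 and 5730507C01Rik), where RefSeq lists the pseudogene Bnip3l-ps. The less bright one falls between the neighbours of Bnip3l on chromosome 14 (Dpysl2 and Ppp2r2a). The annotation table names the parent gene for all 4, near-identical copies can share signal, and values are therefore given for both probe sets.

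Bnip3l was lower in siMnSOD on both probe sets. The brightest read 969.8, 1017 and 676 units in siMnSOD and 1385, 1323 and 966 in siScramble. The groups overlapped at 1 array, siScramble 3, which lay just under siMnSOD arrays 1 and 2. The level was 72.2% of the control (log2 difference -0.47, SE 0.21, interval -0.97 to 0.027, adjusted p = 0.345 in limma), and the differences within replicate numbers were alike at -0.51, -0.38 and -0.51. With the replicate number as a block it passed (SE 0.082, adjusted p = 0.0414 in limma), where 7.14% of all genes did. It also passed without replicate 3 of both groups (-0.45, adjusted p = 0.0128), where 21.4% of all genes did. With single arrays left out it ranged from -0.63 to -0.28 and never passed. Centring each array on its median gave -0.38 (adjusted p = 0.615).

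The less bright Bnip3l probe set read 839.97, 810 and 576 units in siMnSOD and 1169, 1125 and 895 in siScramble. Here the groups did not overlap. The difference was -0.53 (SE 0.18, interval -0.97 to -0.091, adjusted p = 0.202 in limma, or 0.0347 with the replicate block), with -0.48, -0.47 and -0.64 within replicate numbers.

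Bnip3 had the widest spread of the set, too wide to tell whether it differed as Bnip3l did. Its brightest probe set read 629, 681 and 412 units in siMnSOD and 731, 696 and 207 in siScramble. Array 3 was the lowest in both groups. Its shift against the mean of arrays 1 and 2 was -1.79 on the log2 scale in siScramble, exceeded in size by 0.858% of all tested rows, and -0.67 in siMnSOD. The log2 difference of 0.25 had an SE of 0.49 and an interval of -0.92 to 1.42, and it was -0.35 without siScramble replicate 3 (adjusted p = 0.468 in limma). Within replicate numbers the difference was -0.22, -0.031 and 0.997. The less bright probe set repeated this, with 349, 373 and 211 units in siMnSOD and 392, 421 and 120 in siScramble, and -0.17, -0.17 and 0.82 within replicate numbers.

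Other hypoxia-induced genes were low together with Bnip3 on siScramble array 3. Of 19 measured genes of a list of such targets, 15 were lower on that array than the mean of control arrays 1 and 2, with a median shift of -0.65, whereas 38.9% of all genes were lower and the median over all genes was 0.099. Pdk1, which slows pyruvate oxidation, read 224, 215 and 53.5 units on siScramble arrays 1, 2 and 3, a shift of -2.04. On siMnSOD array 3, by contrast, 7 of the 19 were lower, with a median shift of 0.075, close to the 39.8% and 0.081 over all genes. Between the groups 1 gene of the list passed the threshold, where 3.75% of all genes did. This gene was Vegfa, the angiogenic growth factor, which read 144, 149 and 192 units in siMnSOD and 591, 554 and 426 in siScramble. Vegfa fell by 1.69 (SE 0.17, adjusted p = 0.00667 in limma). Without siMnSOD replicate 2 the difference was -1.64 and the call was lost (adjusted p = 0.058). The median of the list was 0.021, with Hk2 at -1.08 (adjusted p = 0.112), Ero1a at -1.03 (0.0884) and Egln3 at 0.73 (0.108, or 0.0498 with the replicate block). These counts rest on siScramble replicate 3: without it Hk2 (-1.44, adjusted p = 0.0022), Ero1a (-1.35, adjusted p = 0.00136) and Egln3 (0.94, adjusted p = 0.00673) passed, where 11.2% of all genes did. Of the promoter windows of the 19 genes 55.2% held ACGTG and 58.6% GCGTG, against 19.6% and 32.4% of all windows. Of the 14 windows of the members, 3 held ACGTG and 8 held GCGTG. The 19 genes were listed for being hypoxia targets, and no array value entered these shares. What the shares reflect was not tested.

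**Figure D3:**
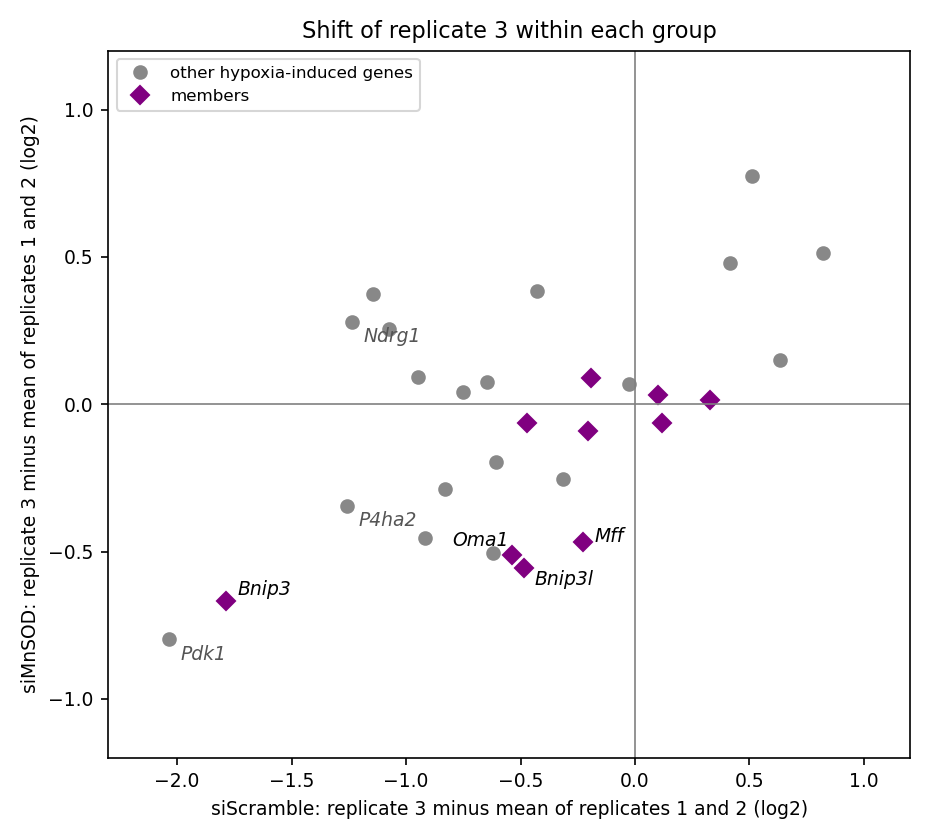
Shift of replicate 3 against the mean of replicates 1 and 2 (log2 intensity) in siScramble (x axis) and siMnSOD (y axis), for the 10 members (purple diamonds) and 19 other hypoxia-induced genes (grey circles). Bnip3 (-1.79 and -0.67) lies beside Pdk1 (-2.04 and -0.80) at the lower left, while Bnip3l, Oma1 and Mff are lower on replicate 3 in both groups, Mff by -0.23 in siScramble and -0.47 in siMnSOD.

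Genes that work with the members were described from lists. Of 15 measured inner membrane and fusion partners, 11 had positive and 4 negative differences, with a median of 0.19. None passed the threshold, where 3.75% of all genes did. The genes of this list with the smallest p included Micos10 (0.40, SE 0.095, adjusted p = 0.0794) and Immt (0.25, SE 0.093, adjusted p = 0.236), which encode parts of the complex that holds the cristae junctions. The others were Spg7 (0.29, SE 0.11, adjusted p = 0.226), for an inner membrane protease, and Slc25a46 (-0.33, SE 0.15, adjusted p = 0.375), for an outer membrane protein. Groups did not overlap for 5 of the 15 (20.9% of all genes), 4 of them higher (11.1% of all genes).

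Of 14 measured fission adaptors and regulators, 1 rose and none fell, with a median of -0.0026 (in all genes 2.17% passed on the higher and 1.58% on the lower side). Mtfr2, a regulator of mitochondrial fission also called DUFD1, read 112, 118 and 137 units in siMnSOD and 47.5, 49.7 and 56.2 in siScramble. It rose by 1.26 (SE 0.12, adjusted p = 0.00617 in limma), with 1.24, 1.25 and 1.28 within replicate numbers, and was just outside the threshold without siMnSOD replicate 2 (adjusted p = 0.0506). Senp5, a SUMO protease (-0.32, adjusted p = 0.153), Marchf5, an outer membrane ubiquitin ligase (-0.21, adjusted p = 0.42), and Mtfp1, an inner membrane fission protein (0.31, adjusted p = 0.688), did not pass.

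Among 18 measured mitophagy factors 1 fell and none rose (3.75% of all genes passed in either direction), with 6 positive and 12 negative differences and a median of -0.12. Sqstm1, for the ubiquitin-binding autophagy receptor p62, read 2414, 2531 and 2069 units in siMnSOD and 5383, 5137 and 4425 in siScramble. It fell by 1.09 (SE 0.13, adjusted p = 0.00958 in limma), with -1.16, -1.02 and -1.10 within replicate numbers. The call ended without siMnSOD replicate 1 or 2 or siScramble replicate 1 or 2 (adjusted p 0.0519, 0.0629, 0.0542 and 0.0619). Vdac1, for the outer membrane channel that PINK1-dependent ligases tag, read 630, 715 and 571 units in siMnSOD and 477, 450 and 338 in siScramble (0.61, adjusted p = 0.108, or 0.0382 with the replicate block). Fkbp8, for an outer membrane mitophagy receptor, read 489, 501 and 509 units in siMnSOD and 379, 377 and 375 in siScramble (0.41, adjusted p = 0.0659, or 0.0499 with the block). With the block 2 of the 18 factors were thus higher and 1 lower, against 7.14% of all genes in either direction. Usp8, for a deubiquitinase (-0.29, adjusted p = 0.243), did not pass either way.

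Among 6 measured genes for transport of mitochondria along microtubules none passed, where 3.75% of all genes did. Their median was -0.075, and 2 were lower without overlap, against 9.73% of all genes. The motor gene Kif5b, which many cargoes use, read 598, 323 and 451 units in siMnSOD and 853, 847 and 707 in siScramble (-0.85, SE 0.23, adjusted p = 0.103). The mitochondrial anchor gene Rhot1 had -0.19 (adjusted p = 0.421), and the adaptor genes Trak1 and Trak2 had -0.25 and 0.11 (adjusted p = 0.986 and 1.00). Across the 3 lists of the fusion, fission and mitophagy machinery, then, 2 genes passed, Mtfr2 and Sqstm1, where 3.75% of all genes did. Both differed by more than any of the 10 members did, but they were singled out by the call. The uncalled Vdac1 (0.61) did so too.

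**Figure D4:**
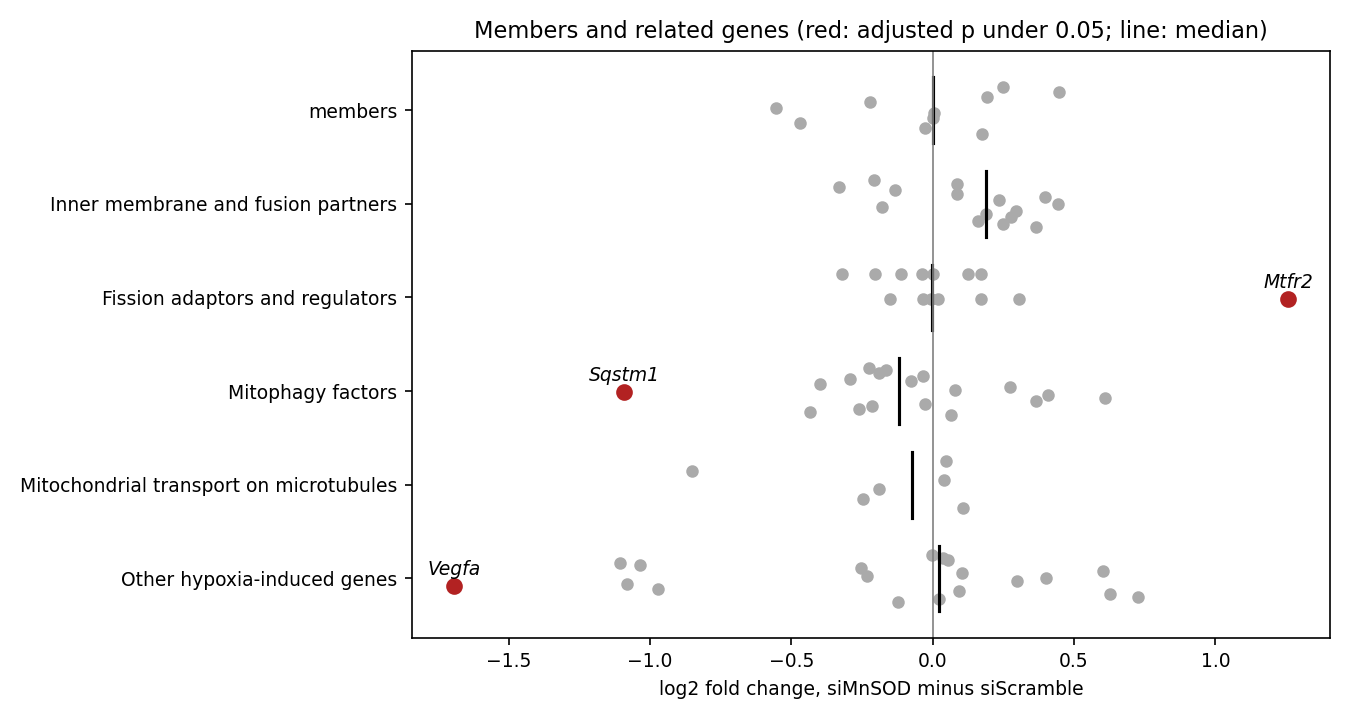
Log2 difference between siMnSOD and siScramble for each measured gene (1 point each) of the 10 members and of the related lists, with a line at the median of each list and red points for an adjusted p under 0.05 in limma. Members lie between -0.55 and 0.45 with none in red, while Mtfr2 (1.26), Sqstm1 (-1.09) and Vegfa (-1.69) are the called genes.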

How the data were processed

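RNA of 6 samples, 3 siMnSOD and 3 siScramble, was measured on 1 array each. The authors deposited 1 normalized intensity per probe set and array, in linear units. RMA made them per the submitters' processing notes, whereas per the labels MAS5 scaled the chips; versions and genome build: not given in the sources used here. Of 35557 probe sets, 21789 had 1 symbol, 1621 several (tested, not named) and 12147 none (not tested). Symbols were updated through Entrez identifiers (21698 matched in a RefSeq table of GRCm38.p6, used for names and neighbours). The brightest probe set stood for each of 999 genes with more than 1, leaving 21559 tested rows. The log2 of these intensities entered limma 3.58.1 under R 4.3.3 (lmFit and eBayes, with group as sole term), with Benjamini-Hochberg adjustment over all rows and a threshold of 0.05. The script was tested on simulated data. SE and 95% intervals are those of the fit. The background guide is the 95th percentile of the means of 1027 olfactory receptor genes, a choice made after seeing the data, as was the use of both probe sets of Bnip3 and Bnip3l. No filter on low values was used, no depth exists for arrays, and their number limits the precision.

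The named genes were every member, Sod2, and of each pathway list the up to 4 genes with the smallest p and any called gene. Markers of cell types lay outside this rule, and those named, and Pdk1, were named after their values were seen. Members, lists and tests were chosen with earlier results of these data known. Samples sharing a replicate number deviated together from the means of their groups (r 0.30, 0.29 and 0.56 for numbers 1, 2 and 3). Each r was over 0.1, which was taken as pairing, although numbers 1 and 2 were closer crosswise (0.47 and 0.41). Deviations from a mean cancel over the 3 arrays of a group, so a shared shift of replicate 3 also raises r among numbers 1 and 2. Pairing of numbers 1 and 2 can therefore not be read from these r values. What a number stands for is not in the labels. The alternatives were this block, other scalings, other rows, other priors, array weights and leaving out arrays.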

Additional observations from a re-analysis of the deposited data

How the results depend on the processing

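Over 16 alternatives for each of the 10 members (160 values), 137 kept direction and side of the threshold, 7 passed it and 16 changed sign, all of the latter in members that never passed. With all 6 arrays and no array weights no member was called higher in any alternative, and only the replicate block called 1 lower (Bnip3l). Array weights called 1 higher (Fis1) and 2 lower (Dnm1l and Bnip3l); leaving out single arrays gave 0 to 1 higher and 0 lower, and leaving out replicate 3 of both groups 1 higher and 1 lower. Over all genes, 432 were called higher and 316 lower. The counts were 801 and 623 with the block, 278 and 154 with all probe sets tested, 2486 and 2188 with array weights, and 140 lower after centring on medians. Without single arrays they ranged from 52 to 1119 higher and 25 to 1119 lower, and without both replicates 3 they were 2343 and 1932. Signs changed with array weights for Bnip3 (-0.13), Mff (0.043), Mfn1 (-0.083) and Trak2 (-0.12), and with centring for Mff (0.058). When arrays were left out, Bnip3 ranged from -0.35 to 0.57, Mff from -0.13 to 0.13, Mfn1 from -0.091 to 0.040, Oma1 from -0.0046 to 0.35, Opa1 from -0.042 to 0.062, Trak1 from -0.54 to 0.19 and Trak2 from -0.16 to 0.25. Beyond the calls printed with the results, the block changed none of a member, Sod2 or a named gene of the pathway lists. The causes were not tested.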
